A study of Mus musculus with 12 samples.

Results

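The 10 genes described here across 12 whole mouse hearts belong to the chaperone response of the endoplasmic reticulum (ER): Sdf2l1, Manf, Creld2, Xbp1, Hspa5, Pdia4, Dnajb9, Hsp90b1, Herpud1 and Calr. The rule names gene symbols and uses no measured value, but the choice was made with earlier results of these data known, so their shares beside all genes are descriptions only. They make up 10 of 54178 gene entries. All 10 were among the 15226 genes that passed the filter on low counts. The hearts came from Flox mice, which carry Cited4 alleles flanked by loxP sites (CITED4 flox/flox), and from KO mice, obtained by crossing those with aMHC-cre mice. In KO mice the alpha myosin heavy chain promoter drives Cre recombinase in cardiomyocytes. The deletion is thus meant for that cell type, and other cells of the heart are meant to keep the gene. CITED4 is a nuclear partner of the co-activators CBP and p300. Mice of each genotype were labelled sedentary or exercise, the latter meaning voluntary wheel running, for 8 weeks, with 3 libraries in each of the 4 groups. The sources used here do not give the mice's age, sex and strain, the hour of collection, or whether the Flox mice carried Cre.

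The treatment names need a caution. In every sample title a bracketed code with the letter E stands beside the word sedentary, and a code with the letter S beside the word exercise. The groups below follow the words, which the treatment field repeats, and are therefore called "labelled exercise" and "labelled sedentary". If the codes were right, each exercise difference and each interaction would turn its sign, and the comparisons of genotype within a treatment would exchange names. The genotype difference averaged over treatment would keep its value.

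The ER folds proteins bound for membranes and secretion. When unfolded proteins accumulate there, the membrane sensors IRE1, PERK and ATF6 start the unfolded protein response, which raises transcription of chaperones, folding enzymes and degradation factors. Hspa5 (BiP), the Hsp70 chaperone of the ER, also binds the sensors and restrains them. In cardiomyocytes this response acts beside calcium storage in the sarcoplasmic reticulum and the secretion of natriuretic peptides.

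Transcription of several of these genes is known to run through ER stress elements near the start site. The upstream windows that hold such a motif are shown here, with Sdf2l1, the member with the largest difference below, for contrast. Each window is the 250 bases before the RefSeq start site (GRCm38.p6), written 5′ to 3′ in the direction of the gene, and capitals mark the matches. The GENCODE spans given below begin further upstream for Hspa5, Hsp90b1, Calr and Dnajb9. The whole window of Dnajb9, which is not shown, lies inside its span. Parts of the Hspa5, Hsp90b1 and Calr windows lie inside theirs. The ER stress element of Hspa5 lies in such a part. The motifs searched on both strands were the ER stress element (CCAAT and CCACG with 9 bases between them), the second such element (ATTGG and CCACG with 1 base between them), and the unfolded protein response element TGACGTGG or TGACGTGA.
Hspa5 (chr2:34771840-34772089, plus strand): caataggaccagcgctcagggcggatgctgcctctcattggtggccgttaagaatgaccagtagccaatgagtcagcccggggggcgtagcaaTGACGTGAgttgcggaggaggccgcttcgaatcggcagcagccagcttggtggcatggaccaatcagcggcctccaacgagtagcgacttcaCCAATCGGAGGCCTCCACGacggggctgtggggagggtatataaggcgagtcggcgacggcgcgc
Hsp90b1 (chr10:86705445-86705694, minus strand): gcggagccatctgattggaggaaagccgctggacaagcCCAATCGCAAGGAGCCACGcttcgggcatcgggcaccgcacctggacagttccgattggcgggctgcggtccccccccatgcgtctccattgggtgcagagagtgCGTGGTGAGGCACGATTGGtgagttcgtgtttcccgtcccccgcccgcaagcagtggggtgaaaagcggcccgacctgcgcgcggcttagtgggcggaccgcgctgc
Calr (chr8:84846932-84847181, minus strand): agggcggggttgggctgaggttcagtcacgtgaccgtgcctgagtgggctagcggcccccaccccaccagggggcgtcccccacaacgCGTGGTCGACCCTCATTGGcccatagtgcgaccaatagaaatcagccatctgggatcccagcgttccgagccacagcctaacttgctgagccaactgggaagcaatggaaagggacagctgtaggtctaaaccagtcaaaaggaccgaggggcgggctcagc
Creld2 (chr15:88819396-88819645, plus strand): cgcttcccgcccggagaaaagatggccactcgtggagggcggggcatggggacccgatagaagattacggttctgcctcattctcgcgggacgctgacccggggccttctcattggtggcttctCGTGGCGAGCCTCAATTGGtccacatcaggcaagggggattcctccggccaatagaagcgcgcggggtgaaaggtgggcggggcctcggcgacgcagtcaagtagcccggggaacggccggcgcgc
Herpud1 (chr8:94386179-94386428, plus strand): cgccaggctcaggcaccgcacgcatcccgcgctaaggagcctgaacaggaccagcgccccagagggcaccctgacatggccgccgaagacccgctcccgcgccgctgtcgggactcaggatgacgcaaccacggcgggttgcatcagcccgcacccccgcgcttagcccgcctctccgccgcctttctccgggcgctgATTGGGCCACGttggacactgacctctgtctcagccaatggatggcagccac
Sdf2l1 (chr16:17132384-17132633, minus strand): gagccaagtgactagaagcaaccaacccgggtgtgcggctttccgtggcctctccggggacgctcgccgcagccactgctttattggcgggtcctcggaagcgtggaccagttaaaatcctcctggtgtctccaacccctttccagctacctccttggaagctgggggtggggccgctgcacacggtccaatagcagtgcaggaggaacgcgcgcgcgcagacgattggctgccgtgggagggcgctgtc
The first element was found in 4 of the 9 members with a window (Hspa5, Calr and Creld2 once each, Hsp90b1 in 2 places) and in 37 of 32851 windows in all, or 0.113%. The second was found in Herpud1, from base -52 to -42, and in 0.0304% of windows. The third was found in Hspa5, from -157 to -150, and in 0.913% of windows. In Hspa5 the first element lay from -65 to -47, in Calr from -162 to -144 and in Creld2 from -126 to -108. In Hsp90b1 its matches ran from -212 to -194 and from -107 to -89. No matches overlapped each other. The Sdf2l1 window had none of these motifs, although it held the parts CCAAT and CCACG at 3 places each, counted on both strands. Xbp1, Pdia4 and Dnajb9 had no match either, and for Dnajb9 no sequence before the GENCODE start was searched. A match is a description of the letters and does not show that a factor binds there. Manf was not searched.

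Library totals ran from 17465401 to 20467260 estimated counts, of which genes of the mitochondrial genome took 21.6% to 28.3%, and the 10 members together 0.110% to 0.160%. Cited4 had 192 to 431 counts in the 6 Flox libraries and 0 to 5 in the 6 KO libraries. Counts from whole hearts do not show in which cells the gene was lost. Heart muscle genes were abundant throughout (Myh6 at 20866 to 28792 CPM, Tnnt2 at 5283 to 8333 CPM). CPM is the count divided by library size and multiplied up to a fixed total. It includes a correction for composition, except for the single marker genes named in this paragraph. Atrial genes varied widely between libraries (Nppa, 115 to 14548 CPM, and Mybphl, 0.15 to 397 CPM), and Bmp10 was at 0 in 4 libraries. Plasma cells hold much ER, and their gene Jchain was at 0.15 to 0.608 CPM. The summed level of the tested plasma and B cell markers was 11.4 to 19.7 CPM.

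Levels of the members are compared here per length, as mean CPM over 12 libraries divided by the length of all annotated exons in GENCODE M21 (GRCm38). The highest were Hspa5 (96.9 CPM per kb, chr2:34771970-34777547, plus strand) and Calr (90.9 CPM per kb, chr8:84841850-84846934, minus strand), which encodes calreticulin, a calcium-binding chaperone of glycoproteins. Hsp90b1, the ER member of the Hsp90 family, followed at 68.1 CPM per kb (chr10:86690209-86705509, minus strand). Herpud1, a membrane protein that helps assemble the machinery of ER-associated degradation, stood at 65.8 CPM per kb (chr8:94386438-94395377, plus strand). The ranges of these 4 genes over the libraries overlapped, from 70.4 to 128 CPM per kb for Hspa5 down to 50.2 to 102 CPM per kb for Herpud1.

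The other members stood lower. Xbp1 (chr11:5520659-5525893, plus strand), a transcription factor whose messenger RNA is spliced by IRE1, was at 17.4 CPM per kb, and gene counts do not tell its spliced from its unspliced form. Dnajb9 (chr12:44205559-44210326, minus strand), a J-domain partner of BiP, was at 13.5 CPM per kb. Pdia4 (chr6:47796141-47813430, minus strand), a protein disulfide isomerase, was at 12.5 CPM per kb. The ranges of these 3 genes overlapped too, while their means lay well below those of the first 4. Manf (chr9:106838312-106891979, minus strand), a small secreted ER protein that binds BiP, was at 8.91 CPM per kb. Its annotated span overlaps the coding genes Dcaf1 and Rbm15b, and Herpud1 has an antisense neighbour, Gm15890. Whether the counting used strand is not given in the sources used here, so reads of such partners may not be told apart. Creld2 (chr15:88819646-88826683, plus strand), an ER protein with EGF-like domains, was at 8.01 CPM per kb. Sdf2l1 (chr16:17130138-17132383, minus strand), part of a J-domain complex in the chaperone cycle of BiP, was lowest at 4.83 CPM per kb. The ranges of Manf, Creld2 and Sdf2l1 over the libraries overlapped.

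**Figure D1:**
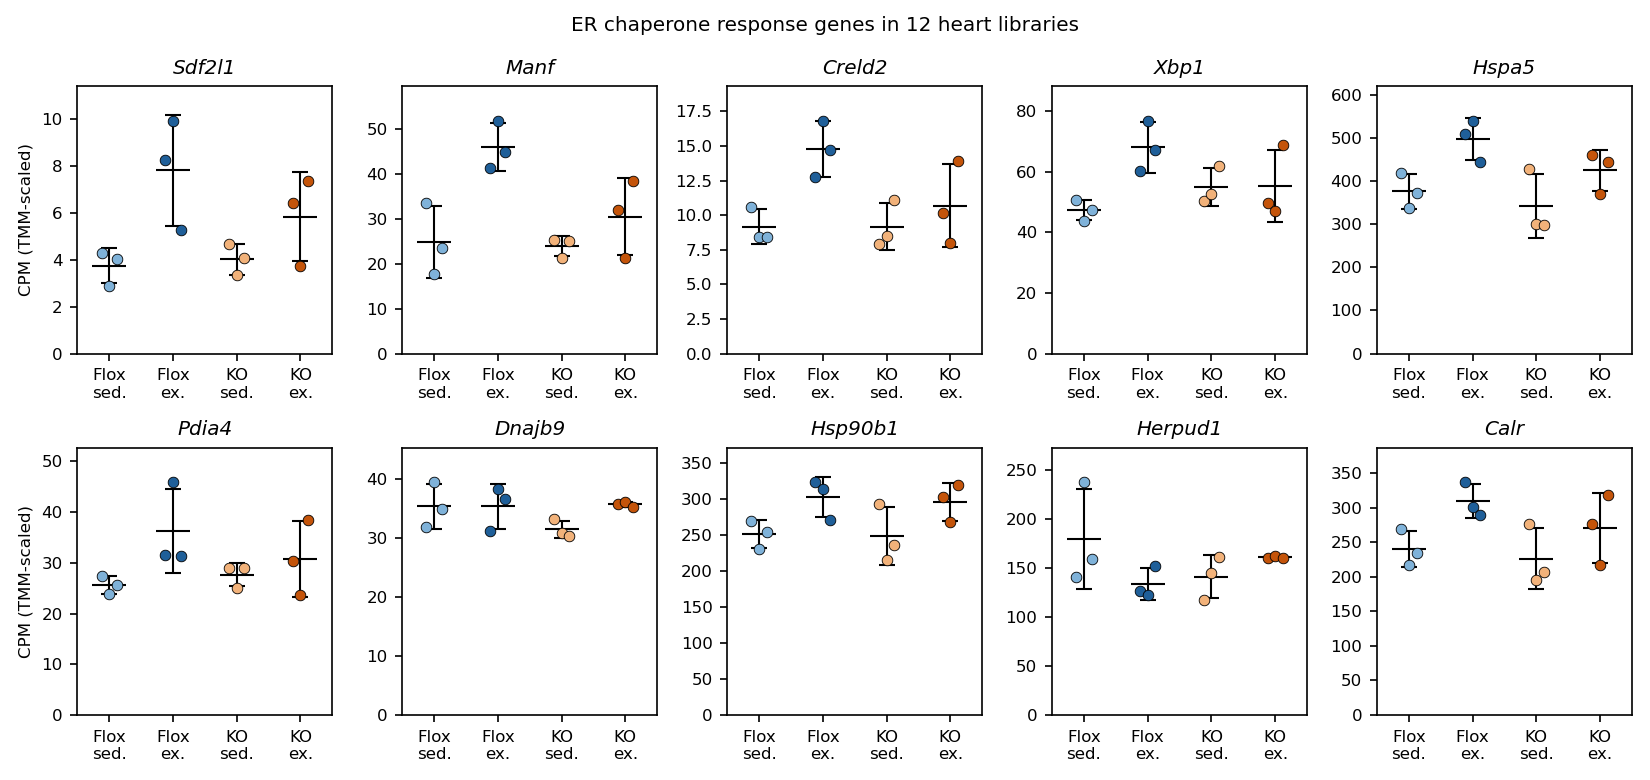
Level of each member (CPM, linear axis from 0) in the 12 libraries, by genotype and treatment label (sed., labelled sedentary; ex., labelled exercise). Points are libraries, the horizontal line is the group mean and bars are SD (n = 3). In 8 panels the 3 Flox libraries labelled exercise lie above the 3 Flox libraries labelled sedentary, and Dnajb9 and Herpud1 are the exceptions.

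The first comparison asked how Flox hearts labelled exercise differed from Flox hearts labelled sedentary. In value, 8 of 10 members stood higher under the exercise label, by 0.27 to 1.06 on the log2 scale, led by Sdf2l1 and Manf. Dnajb9 had equal means and Herpud1 was lower. No member passed edgeR's quasi-likelihood test with Benjamini-Hochberg adjustment over all genes (adjusted p under 0.05), with adjusted p from 0.487 to 1.00. No other gene of the table passed either (0% called, with 1129 genes at an unadjusted p under 0.05). DESeq2 on the same counts called 44 genes and none of the members.

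The partners of BiP are taken first. Sdf2l1 was at 4.31, 2.89 and 4.03 CPM in Flox labelled sedentary and at 8.26, 9.93 and 5.26 CPM in Flox labelled exercise, a log2 difference of 1.06 ± 0.28 (SE), or 2.09-fold. Manf was at 33.6, 17.6 and 23.5 CPM against 41.3, 51.9 and 45 CPM, a log2 difference of 0.89 ± 0.24. Every library labelled exercise was above every library labelled sedentary for both genes, with edgeR adjusted p = 0.487 for each. Dnajb9 was at 31.7, 39.4 and 34.9 CPM against 31.1, 38.3 and 36.6 CPM. Its groups covered nearly the same range, and the log2 difference was 0.00 ± 0.10.

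The abundant chaperones of the ER lumen had smaller differences. Hspa5 was at 419, 337 and 371 CPM in Flox labelled sedentary and at 509, 539 and 443 CPM in Flox labelled exercise (log2 difference 0.40 ± 0.16). Calr was at 269, 217 and 235 CPM against 337, 302 and 290 CPM (0.37 ± 0.17). Hsp90b1 was at 269, 231 and 255 CPM against 323, 314 and 271 CPM (0.27 ± 0.14). The groups of these 3 genes did not overlap, but for Hsp90b1 the lowest exercise library was only just above the highest sedentary one. Their edgeR adjusted p ran from 0.607 to 0.697.

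Among the folding enzymes and related proteins, Creld2 was at 10.6, 8.45 and 8.42 CPM against 12.8, 16.8 and 14.7 CPM, a log2 difference of 0.69 ± 0.20. Pdia4 was at 27.3, 23.8 and 25.6 CPM against 31.6, 45.9 and 31.4 CPM, a log2 difference of 0.51 ± 0.18. For Pdia4 1 library, Flox labelled exercise 2, stood far above the others, and without it the difference was 0.30. The transcription factor Xbp1 was at 50.7, 43.8 and 47.5 CPM against 60.1, 76.8 and 67.1 CPM, a log2 difference of 0.52 ± 0.15. All 3 genes were higher in every library labelled exercise, with edgeR adjusted p of 0.510, 0.562 and 0.489 in the order named.

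Herpud1 was lower in value. It was at 141, 237 and 159 CPM in Flox labelled sedentary and at 126, 122 and 152 CPM in Flox labelled exercise (log2 difference -0.42 ± 0.18, edgeR adjusted p = 0.631). The groups overlapped. Flox labelled sedentary 2 held the highest Herpud1 of all 12 libraries while it was lowest of its group for 7 of the other 9 members, and without it the difference was -0.17.

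Against the table as a whole, 8 of 10 members had groups that did not overlap with the higher values under the exercise label, where 7.5% of all tested genes did. At an unadjusted p under 0.05 there were 8 members (7.41% of all genes), 7 of them higher (3.86% of all genes) and Herpud1 lower. The median log2 difference was 0.46 for the members and 0.01 for all genes. These shares describe the members and are not a test.

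Markers of other cell types differed between the same groups. In Flox, 14 of 15 fibroblast markers and 11 of 11 macrophage markers were higher in value under the exercise label (median log2 differences 0.43 and 0.63), and none passed. The summed fibroblast markers were at 2357 to 2548 CPM in the libraries labelled sedentary and 2576 to 3718 CPM in those labelled exercise. Summed macrophage markers were at 278 to 329 CPM against 317 to 627 CPM, and no marker of either list was at 0 in any library. Flox labelled exercise 1, which was high in the members, lay within the sedentary range in summed macrophage markers (317 CPM). Its fibroblast markers lay above the sedentary range when summed (2576 CPM) and within it in mean log2 CPM (5.60, against 5.51 to 5.62). Of 15 ventricular and general cardiomyocyte markers 14 were lower in value (median -0.12). Of 10 adipocyte markers 9 were higher, at a summed 27.2 to 39.7 CPM against 25.0 to 50.3 CPM. Of 20 atrial markers 9 were higher and 11 lower (median -0.16), at a summed 1459 to 6573 CPM against 1418 to 6955 CPM. Flox labelled sedentary 3 and Flox labelled exercise 2 held the highest atrial sums of their groups. With the mean of the fibroblast markers as a covariate, an alternative added after seeing the data, the member median was 0.29 in place of 0.46. Sdf2l1 was then at 0.84 ± 0.31, Manf at 0.63 ± 0.24 and Xbp1 at 0.25 ± 0.10, and no member passed. The part of the macrophage, cardiomyocyte and adipocyte markers was not tested. In whole hearts, fewer cells of a type and less RNA per cell cannot be told apart.

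In KO hearts the same comparison gave smaller values for 8 of the 10 members. All 10 were higher in value under the exercise label, by 0.00 to 0.53 on the log2 scale, with a median of 0.24 against 0.00 for all genes. None passed (edgeR adjusted p from 0.513 to 0.994, with 0.0197% of all genes called), and none had an unadjusted p under 0.05, where 10.6% of all genes did. DESeq2 called no member either. In 1 member, Dnajb9, the groups did not overlap, against 13.1% of all genes.

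Sdf2l1 was at 4.68, 3.35 and 4.06 CPM in KO labelled sedentary and at 6.44, 3.71 and 7.35 CPM in KO labelled exercise (log2 difference 0.53 ± 0.28). Manf was at 25.4, 21.4 and 25.1 CPM against 31.9, 21.3 and 38.5 CPM (0.35 ± 0.23). In both genes the second library labelled exercise lay within or below the range of those labelled sedentary, while the other two lay above all of them. Creld2 was at 7.91, 8.5 and 11.1 CPM against 10.1, 8.00 and 13.9 CPM (0.22 ± 0.20), and its groups overlapped. Xbp1 was at 50.4, 52.6 and 62.0 CPM against 49.7, 46.9 and 68.8 CPM, and its log2 difference was 0.00 ± 0.15. For Xbp1 the third library labelled exercise was above the KO libraries labelled sedentary and the other two were below them.

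The abundant chaperones had differences in KO near those in Flox. Hspa5 was at 428, 300 and 298 CPM in KO labelled sedentary and at 460, 370 and 444 CPM in KO labelled exercise (log2 difference 0.31 ± 0.16). The first library labelled sedentary lay among the exercise libraries, and without it the difference was 0.53 with an edgeR adjusted p = 0.061. Without that library 566 genes of the whole table were called in this comparison in place of 3, none of them members. Hsp90b1 was at 293, 215 and 237 CPM against 302, 267 and 319 CPM (0.26 ± 0.14). Calr was at 277, 196 and 207 CPM against 276, 217 and 318 CPM (0.26 ± 0.17). KO labelled sedentary 1 was the highest of its group in all 3 of these genes, and their groups overlapped.

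Pdia4, Dnajb9 and Herpud1 had differences in KO larger than that of Xbp1 and smaller than those of the other members. Pdia4 was at 29.1, 25.0 and 29.0 CPM against 30.4, 23.6 and 38.4 CPM (log2 difference 0.15 ± 0.18). Dnajb9 was at 33.1, 30.8 and 30.3 CPM against 35.8, 36.0 and 35.1 CPM (0.18 ± 0.10), its exercise libraries lying within 1 CPM of each other. Herpud1 was at 117, 145 and 161 CPM against 160, 162 and 160 CPM (0.19 ± 0.18), with its exercise libraries within 2 CPM of each other. The groups of Pdia4 and Herpud1 overlapped.

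Markers of other cell types also differed between these groups. All 10 adipocyte markers were lower in KO under the exercise label, each at an unadjusted p under 0.05, and Cidec, a lipid droplet protein, passed (edgeR adjusted p = 0.0483). Their summed level was 167 to 350 CPM under the sedentary label and 31.7 to 42.3 CPM under the exercise label. All 15 ventricular and general cardiomyocyte markers were higher in value (median 0.25), and 12 of 13 endothelial (-0.26) and 8 of 10 smooth muscle and pericyte markers (-0.51) were lower. In KO, 5 of 15 fibroblast markers were higher under the exercise label (median -0.22), and their summed level was 3065 to 4250 CPM under the sedentary label and 2656 to 3918 CPM under the exercise label. The summed atrial markers were at 3474 to 27316 CPM in KO labelled sedentary and 1821 to 5594 CPM in KO labelled exercise. With the mean of the atrial markers as a covariate the member median was 0.29 and no member passed. The part of the adipocyte and other markers was not tested.

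**Figure D2:**
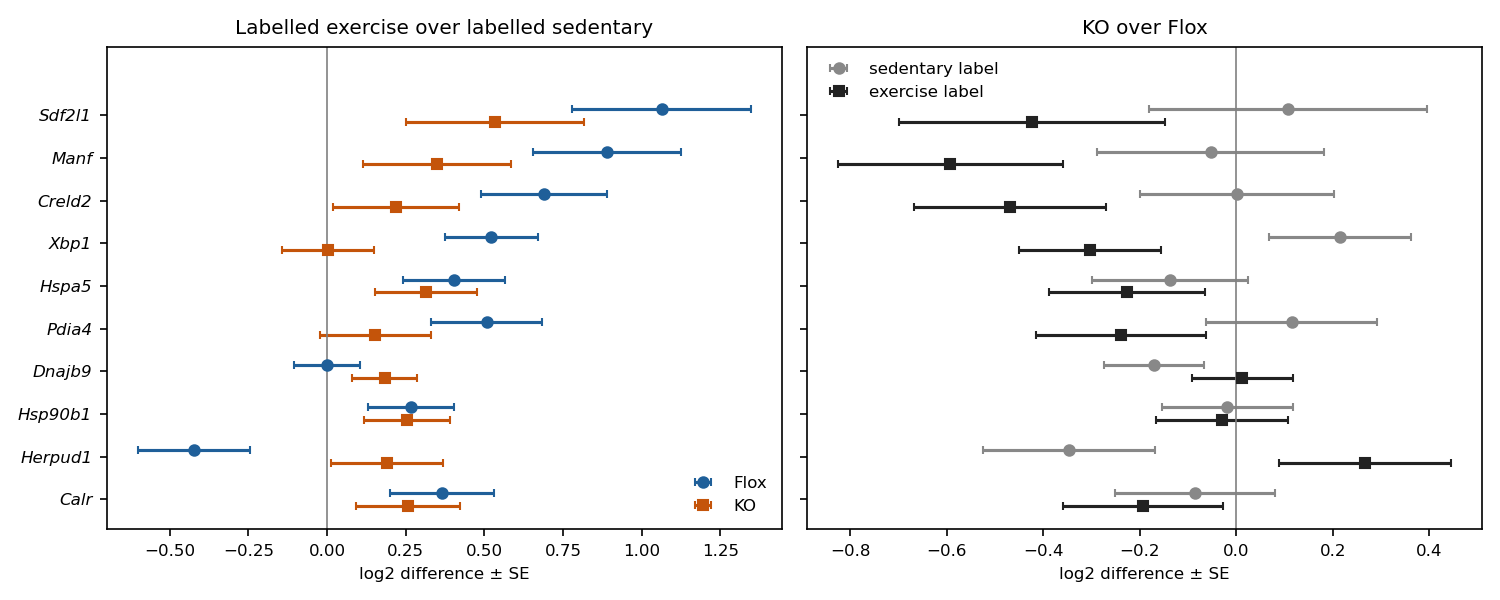
Log2 difference of each member (points, with bars for SE) under the exercise label over the sedentary label in each genotype (left), and in KO over Flox under each treatment label (right). Sdf2l1, Manf, Creld2 and Xbp1 have larger differences in Flox (0.52 to 1.06) than in KO (0.00 to 0.53), Hsp90b1 has like values in both (0.27 and 0.26), and no difference passes the threshold.

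Whether the exercise difference depends on the genotype was tested directly as an interaction, the difference in KO minus that in Flox. No member passed (edgeR adjusted p from 0.477 to 0.989), and no gene of the table did (0% called by edgeR, with 1505 genes at an unadjusted p under 0.05 and 47 called by DESeq2, none of them members). Xbp1 had an interaction of -0.52 ± 0.21 on the log2 scale and Herpud1 one of 0.61 ± 0.25. These were the 2 members with an unadjusted p under 0.05, against 9.88% of all genes. Manf (-0.54 ± 0.33), Sdf2l1 (-0.53 ± 0.40) and Creld2 (-0.47 ± 0.28) had estimates of like size with larger errors. Their 95% intervals reached from below zero to 0.18, 0.33 and 0.14. The median was -0.23 for the members and -0.02 for all genes.

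The interaction of other cell types' markers was mostly negative as well. It was below zero for 14 of 15 fibroblast markers (median -0.72), 11 of 11 macrophage markers (-0.73), 12 of 13 endothelial markers (-0.28), 18 of 20 atrial markers and 10 of 10 adipocyte markers. It was above zero for all 15 ventricular and general cardiomyocyte markers (0.37), and no marker passed. With the fibroblast markers as a covariate the member median was -0.026. Creld2 was then at 0.039 and Pdia4 at 0.073, above zero, and Xbp1 at -0.12 ± 0.15, while Herpud1 was at 0.67 ± 0.31. With the atrial markers as a covariate the median was -0.12. The part of the other marker lists was not tested.

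Averaged over genotype, 9 of 10 members were higher in value under the exercise label, with a median of 0.32. Sdf2l1 had 0.80 ± 0.20, Manf 0.62 ± 0.17, Creld2 0.46 ± 0.14 and Hspa5 0.36 ± 0.11 on the log2 scale. Herpud1 was at -0.12 ± 0.13. At an unadjusted p under 0.05 there were 8 members, all higher, against 8.45% of all genes. None passed after adjustment, where the smallest edgeR adjusted p was 0.435 for Sdf2l1 and 0.0263% of all genes were called. All 10 adipocyte markers and 18 of 20 atrial markers were lower in value in this average, and their part in it beyond the atrial covariate was not tested. This average uses the same libraries as the comparisons within each genotype and adds no separate evidence.

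The genotype comparison addresses a loss of Cited4 that is meant for cardiomyocytes. Under the sedentary label the members differed little in value, from -0.35 to 0.22 on the log2 scale. None passed (0.125% of all genes were called by edgeR), none had an unadjusted p under 0.05 (13.5% of all genes), and in none were the groups free of overlap (18.4% of all genes). Sdf2l1 was at 3.74 ± 0.75 CPM (SD, n = 3) in Flox and 4.03 ± 0.66 CPM in KO. Manf was at 24.9 ± 8.09 against 24.0 ± 2.23 CPM, and Creld2 had the same mean of 9.16 CPM in both genotypes. The lowest difference was that of Herpud1 (-0.35 ± 0.18, edgeR adjusted p = 0.420), which was -0.09 without Flox labelled sedentary 2. Xbp1 had the highest at 0.22 ± 0.15.

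Markers of other cell types differed between the genotypes under the sedentary label. All 10 adipocyte markers were higher in KO, at a summed 167 to 350 CPM against 27.2 to 39.7 CPM in Flox, and Cidec, Adipoq, Retn and Acvr1c passed (edgeR adjusted p from 0.00370 to 0.0459). In value 14 of 15 fibroblast markers (median 0.69), 11 of 11 macrophage markers (0.47), 18 of 20 atrial markers and 8 of 8 mesothelial markers were higher in KO, and all 15 ventricular and general cardiomyocyte markers were lower (-0.35). The smooth muscle marker Myl9 passed and was higher in KO (1.96 ± 0.31, edgeR adjusted p = 0.0487). With the fibroblast markers as a covariate the member median was -0.22 in place of -0.04, and with the atrial markers -0.19. Under either covariate Sdf2l1, Creld2, Xbp1 and Pdia4 turned from above to below zero, and no member passed. The part of the adipocyte markers was not tested.

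Under the exercise label 8 of 10 members were lower in KO, with a median of -0.23 against -0.01 for all genes. None passed (0.00657% of all genes were called by edgeR). Manf was at 46.1 ± 5.38 CPM (SD, n = 3) in Flox and 30.6 ± 8.66 CPM in KO, a log2 difference of -0.59 ± 0.23 with no overlap of the groups (edgeR adjusted p = 0.601). Creld2 was at 14.8 ± 2.02 CPM in Flox and 10.7 ± 2.99 CPM in KO (-0.47 ± 0.20, edgeR adjusted p = 0.619). These were the 2 members with an unadjusted p under 0.05, against 7.94% of all genes. Herpud1 was higher in every KO library (160 to 162 CPM) than in every Flox library (122 to 152 CPM), at 0.27 ± 0.18. Manf and Herpud1 were the 2 members without overlap, in opposite directions, against 14.8% of all genes. In the same comparison all 13 endothelial markers were lower in KO (median -0.36, 6 of them at an unadjusted p under 0.05), at a summed 1222 to 1519 CPM against 1568 to 1965 CPM in Flox, and none passed. Macrophage markers were lower in 9 of 11 (median -0.22) and fibroblast markers in 9 of 15 (-0.04). The part of the endothelial and macrophage markers was not tested.

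Averaged over treatment, all 10 members were lower in KO, at -0.32 to -0.02 on the log2 scale. None passed (0.0525% of all genes were called by edgeR), and none had an unadjusted p under 0.05 (11.6% of all genes). In this average 12 of 13 endothelial markers were lower, while 14 of 15 fibroblast and 10 of 10 adipocyte markers were higher, and Cidec passed (edgeR adjusted p = 0.0108). The comparisons of treatment and of genotype share their libraries.

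The members also varied together from library to library. Over the 12 libraries, 8 members had a Pearson correlation of 0.71 (Xbp1) to 0.90 (Sdf2l1) with the mean of the other 9, in log2 CPM. Dnajb9 had 0.24 and Herpud1 -0.47. The closest pair was Hspa5 with Calr at 0.93, and the most opposed was Sdf2l1 with Herpud1 at -0.58. These correlations hold group differences as well as differences between hearts, so they are descriptions.

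For a view of each library, every member was set to a mean of 0 and an SD of 1 and the 10 were averaged. The order from the top was Flox labelled exercise 2, KO labelled exercise 3, Flox labelled exercise 3 and 1, and KO labelled exercise 1. The 6 libraries labelled sedentary came next, except that KO labelled exercise 2 took the last place but one. In Flox this average was -0.40 ± 0.19 under the sedentary and 0.81 ± 0.41 under the exercise label, and in KO it was -0.62 ± 0.38 and 0.20 ± 0.72 (SD, n = 3). KO labelled exercise thus had the widest spread.

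**Figure D3:**
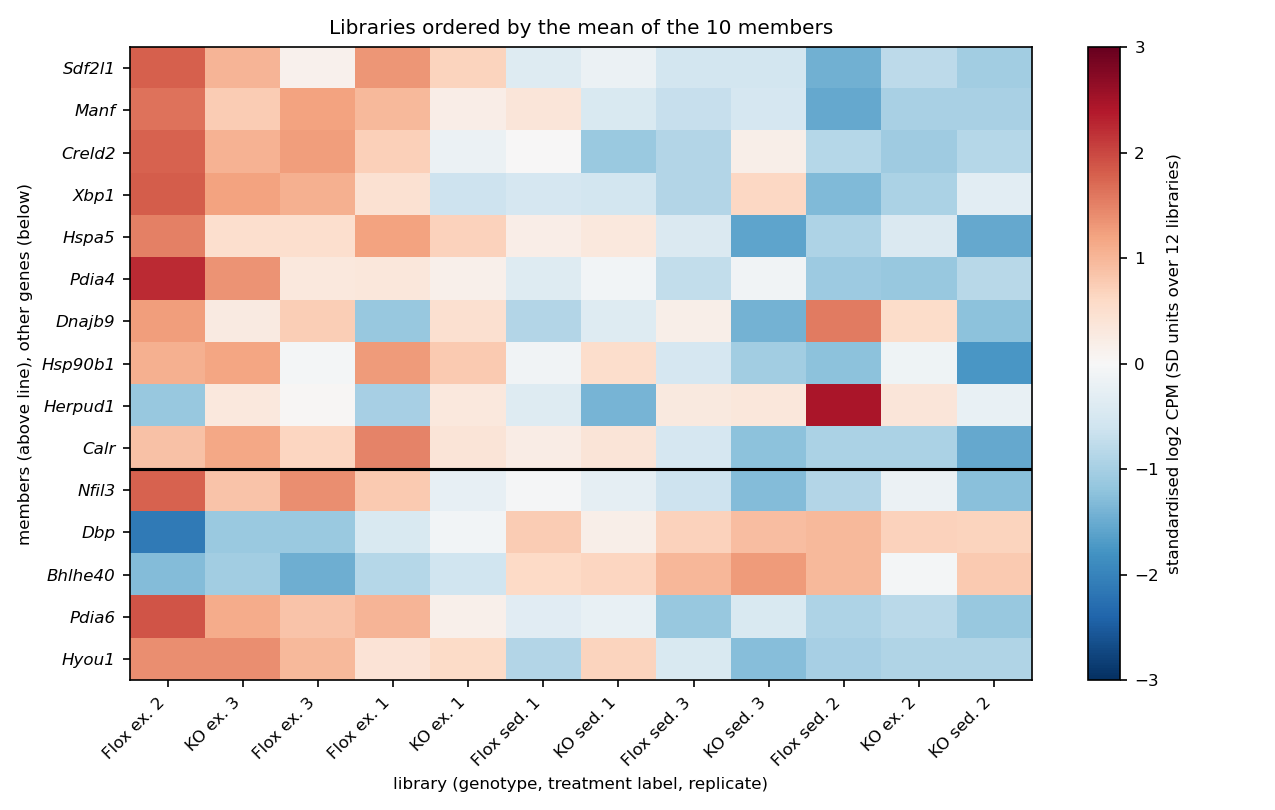
Standardised log2 CPM (colour, in SD units over the 12 libraries, linear scale) of the 10 members above the line and 5 other genes below it. Libraries (columns) are ordered by the mean of the members. Colours of most members run from red at the left to blue at the right, Herpud1 is highest in Flox labelled sedentary 2, and Dbp and Bhlhe40 run the opposite way.

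Outside the 10, genes whose pattern over the 12 libraries was among the most like the member mean were Pdia6 (Pearson r = 0.97), Nfil3 (0.92), Prrc1 (0.90), Serpinh1 (0.89) and Hyou1 (0.88), followed by Arid5b (0.87) and Zfp867 (0.86). Pdia6 is a protein disulfide isomerase, Hyou1 a large Hsp70 relative of the ER, and Serpinh1 (Hsp47) the collagen chaperone. Pdia6 was at 77.2, 69.6 and 67.0 CPM in Flox labelled sedentary and at 98.4, 115 and 95.6 CPM in Flox labelled exercise. In KO, Pdia6 was at 79.0, 67.1 and 75.5 CPM against 84.5, 70.9 and 100.2 CPM, so the second KO library labelled exercise again lay low. The log2 difference of Pdia6 was 0.53 ± 0.13 in Flox and 0.21 ± 0.13 in KO, and neither passed (edgeR adjusted p = 0.426 and 0.577).

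The most opposite genes were Coq10b (-0.94), Dbp (-0.93), Lin52 (-0.93) and Slc12a4 (-0.93). Dbp is an output gene of the circadian clock, and Nfil3 encodes a repressor that acts on the same DNA elements. In the order of the member mean given above, Dbp was at 7.57, 23.7, 24.0, 51.0 and 76.8 CPM in the first 5 libraries and at 103 to 259 CPM in the other 7. Nfil3 was at 21.5, 11.5, 16.6, 11 and 5.30 CPM in those 5 and at 2.51 to 6.19 CPM in the rest. The libraries high in the members were thus low in Dbp and, for the first 4, high in Nfil3. The mean of 18 clock genes had a Pearson correlation of -0.93 with the member mean over the 12 libraries, which share libraries and group differences. In Flox, 12 of these 18 were lower and 6 higher under the exercise label (median log2 difference -0.997). At an unadjusted edgeR p under 0.05 there were 11 lower and 5 higher in Flox, and 1 of each in KO. Mean log2 CPM of the 18 was 4.89 to 5.12 in Flox labelled sedentary and 4.13 to 4.47 in Flox labelled exercise. In KO it was 4.61 to 4.97 against 4.39 to 4.88, the last in KO labelled exercise 2. This mean joins genes of opposite direction, such as Dbp and Nfil3. Among the clock genes the repressor Bhlhe40 passed a test. It was lower under the exercise label averaged over genotype (-0.78 ± 0.09 on the log2 scale, edgeR adjusted p = 0.0103), at 61.5, 68.8 and 69.3 CPM in Flox labelled sedentary against 39.4, 34.4 and 32.6 CPM in Flox labelled exercise. The part of the hour of collection in the member values was not tested.

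Genes that act beside the members were read from 6 further lists, and none of their genes passed in any comparison. Of 37 other ER folding enzymes and chaperones, 32 were higher under the exercise label in Flox (median log2 difference 0.15) and 17 in KO (-0.02). Hyou1 was at 0.42 ± 0.13 averaged over genotype and the prolyl isomerase Fkbp2 at 0.31 ± 0.10. Of 37 genes of translocation, signal cleavage and glycosylation, 31 were higher in Flox (0.16) and 13 in KO (-0.03). Sec61b, a subunit of the translocation channel, was at 0.36 ± 0.13 averaged over genotype, and Srp72 of the same list was at -0.15 ± 0.06.

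The medians of degradation and signalling genes lay nearer zero in Flox. Of 26 genes of ER-associated degradation, 17 were higher under the exercise label in each genotype, with a median of 0.03 in both. Averaged over genotype, Stc2 had the smallest p of this list and was lower (-0.53 ± 0.17, edgeR adjusted p = 0.481), while Ube2j2 was higher (0.19 ± 0.08). Stc2 was at 19.3, 22.7 and 17.2 CPM in Flox labelled sedentary and at 11.2, 12.2 and 8.75 CPM in Flox labelled exercise. Among 18 sensors and regulators, 9 were higher in Flox (0.00) and 10 in KO (0.05). Atf6, the sensor that turns into a transcription factor after cleavage, was at 64.2, 97.1 and 104 CPM in Flox labelled sedentary and at 88.4, 87.9 and 87.6 CPM in Flox labelled exercise. Ern1, which encodes IRE1, was at 15.2, 15.1 and 16.1 CPM against 12.7, 16.8 and 14.1 CPM. The ranges of both sensors overlapped between the Flox groups.

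Of 17 genes of the PERK and ATF4 arm, 9 were higher in Flox (median 0.10) and 6 in KO (-0.18). Ddit3 (CHOP), a transcription factor tied to cell death under ER stress, was at 17.6, 18.3 and 16.6 CPM in Flox labelled sedentary and 17.2, 12.1 and 19.4 CPM in Flox labelled exercise. Its groups overlapped. Ddit4, an inhibitor of mTORC1 that other stresses also induce, was at 0.95 ± 0.24 averaged over genotype (edgeR adjusted p = 0.455). In the same average Trib3 of this list was at -0.23 ± 0.13. Outside the ER, 18 of 20 cytosolic and mitochondrial chaperones were higher in Flox (0.26) and 15 in KO (0.13). The co-chaperone Dnaja1 was at 0.92 ± 0.13 in Flox and at 0.07 ± 0.13 in KO, and the interaction did not pass (-0.85 ± 0.19, edgeR adjusted p = 0.363). The cytosolic Hsp70 Hspa8 was at 0.54 ± 0.14 and 0.32 ± 0.14.

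**Figure D4:**
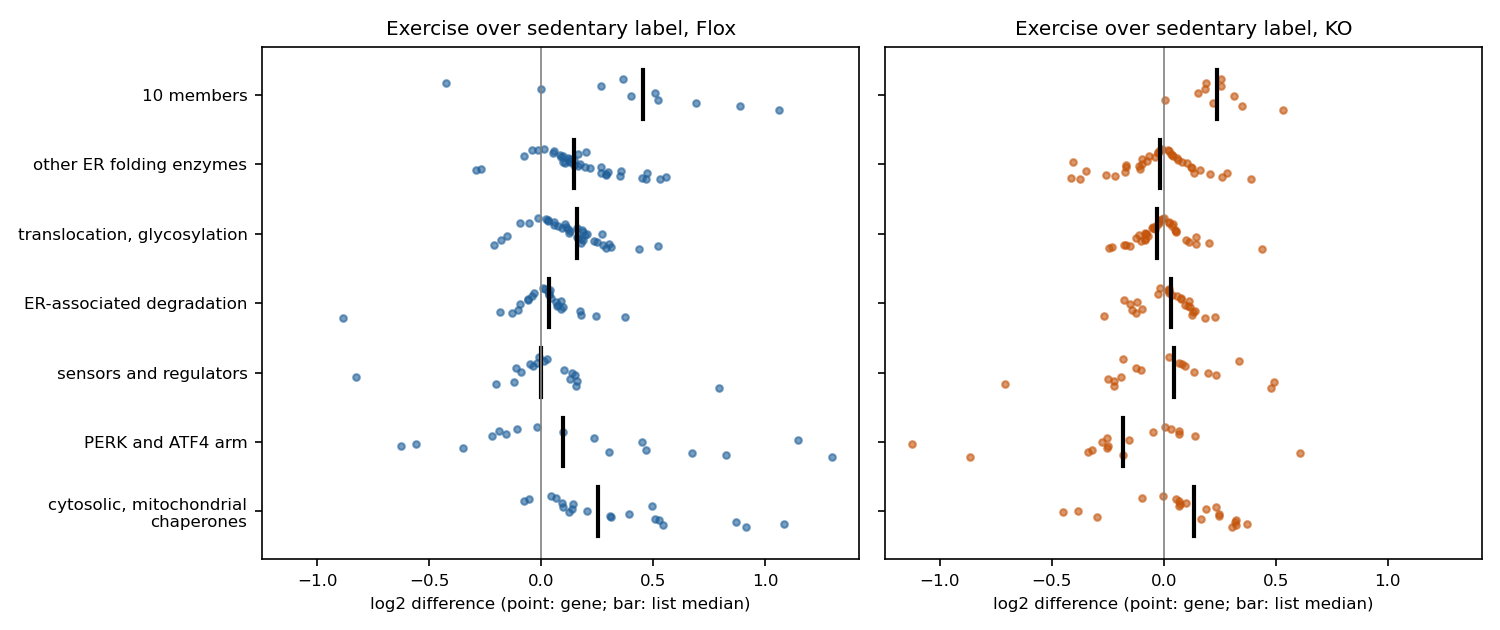
Log2 difference under the exercise label over the sedentary label in Flox (left) and KO (right) for the 10 members and 6 related lists. Each point is a gene and each black bar the median of its list. The member median is 0.46 in Flox and 0.24 in KO, and the medians of the related lists run from 0.00 to 0.26 in Flox and from -0.18 to 0.13 in KO.

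Genes outside the 10 that hold the first or second ER stress element in the same window were followed as well, and 18 of them passed the count filter. Under the exercise label 14 were higher and 4 lower in Flox, with a median log2 difference of 0.14. In KO 7 were higher and 11 lower, with a median of -0.06, and none passed in either genotype. The smallest p in KO were those of Xlr3a (-2.02 ± 0.67), Xlr3b (-2.29 ± 0.80) and Adcy3 (-0.62 ± 0.23), all lower. Xlr3a and Xlr3b had low mean levels, at 0.517 and 1.65 CPM. Pdia6 and Dnajc3, a J-domain inhibitor of PERK, had the smallest p in Flox, at 0.53 ± 0.13 and 0.35 ± 0.17. Canx, the membrane-bound relative of Calr, was at 209, 239 and 230 CPM in Flox labelled sedentary and 238, 262 and 226 CPM in Flox labelled exercise, with overlapping groups. The 4 members that hold the first element had estimates of 0.27 to 0.69 in Flox, and Herpud1, with the second, had -0.42 ± 0.18. Of the members without a match, Sdf2l1 had 1.06 ± 0.28, Xbp1 0.52 ± 0.15, Pdia4 0.51 ± 0.18 and Dnajb9 0.00 ± 0.10. Sdf2l1 was shown because its estimate was the largest, so its rank says nothing about the motifs. The part of the motifs in these differences was not tested.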

How the data were processed

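Whole-heart total RNA was depleted of ribosomal RNA and sequenced, per the labels' protocols. The authors deposited estimated counts per gene symbol for 12 libraries. FastQC, Salmon (no version), mm9 and mm10 are named in the submitters' processing notes. Neither the annotation, the strand setting nor the summing of transcripts is given there. Salmon splits reads between like sequences, so values of genes with near copies are uncertain.

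The estimated counts were rounded. Of 55874 entries, 1696 named vectors, linkers or spike-ins (up to 0.186% of a library) and were left out. edgeR 4.0.16 in R 4.3.3 (filterByExpr, TMM, a mean for each of 4 groups, robust quasi-likelihood fit) tested 7 comparisons over 15226 genes with Benjamini-Hochberg adjustment and a threshold of 0.05. Differences are fitted log2 values ± SE. Alternatives were DESeq2 1.42.0, other scalings, no filter, fits on 2 groups, a replicate block, atrial or fibroblast marker means as covariates, and leaving out each library. The model was tested on simulated data. Named genes outside the members are those that passed, or the 3 with the smallest p in a list, the most alike or opposite genes, and cell markers that passed. Others were picked after their values were seen (Ddit3, Canx, Dnajc3, Xlr3a, Xlr3b, Adcy3, Myh6, Tnnt2, Nppa, Mybphl, Bmp10 and Jchain). Of the genes most alike, 1 is not reported here.

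The members and lists were chosen with earlier results of these data known. The labels give no batch and do not tie libraries to animals, so the p-values cover only how far these samples spread, which may be technical. Libraries of a group differed beyond counting noise (chi-square per degree of freedom 17.1 to 84.7). Coordinates and exon lengths are from GENCODE M21 and promoter windows from RefSeq GRCm38.p6, both matched by symbol.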

Additional observations from a re-analysis of the deposited data

How the results depend on the processing

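No member passed under any alternative (0 of 1370 values), and the smallest adjusted p was 0.061, for Hspa5 in KO under exercise without KO labelled sedentary 1. The member median moved with the fibroblast covariate to 0.29 for exercise in Flox, -0.22 for KO in sedentary hearts and -0.026 for the interaction. The cause was not tested. Leaving out a library gave medians of 0.36 to 0.52 for exercise in Flox, 0.18 to 0.36 for exercise in KO and -0.14 to 0.07 for KO in sedentary hearts.

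Signs turned mostly near zero. Dnajb9 for exercise in Flox was at 0.000722 without the filter, 0.000387 with the replicate block and 0.0031 on 2 groups. Xbp1 for exercise in KO was at -0.0029 with the block. For KO in sedentary hearts, Creld2 was at -0.0029 (DESeq2 size factors, and DESeq2), -0.0088 without mitochondrial genes, -0.014 with the block, -0.0087 on 2 groups, -0.30 with the atrial and -0.49 with the fibroblast covariate. With these covariates Sdf2l1 was at -0.26 and -0.21, Xbp1 at -0.012 and -0.17, and Pdia4 at -0.18 and -0.29. For the interaction, Hsp90b1 was at 0.00078 without mitochondrial genes, and the fibroblast covariate gave Hsp90b1 0.0012, Creld2 0.039 and Pdia4 0.073. The cause was not tested.

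Leaving out 1 library at a time turned the sign of 46 of 840 values, none of them called. The turned values fell in 19 pairs of member and comparison, with these lowest and highest values. For the interaction they were Calr -0.23 to 0.081, Hsp90b1 -0.094 to 0.14 and Hspa5 -0.17 to 0.12. For KO in sedentary hearts they were Calr -0.27 to 0.0029, Creld2 -0.17 to 0.12, Hsp90b1 -0.17 to 0.067, Manf -0.25 to 0.22 and Sdf2l1 -0.050 to 0.22. For exercise in KO they were Creld2 -0.0035 to 0.39, Pdia4 -0.027 to 0.31 and Xbp1 -0.18 to 0.11. For exercise in Flox they were Dnajb9 -0.071 to 0.084. For KO in exercise hearts they were Dnajb9 -0.071 to 0.084 and Hsp90b1 -0.10 to 0.039. For the exercise average they were Herpud1 -0.19 to 0.011. For the KO average they were Herpud1 -0.11 to 0.087, Hsp90b1 -0.098 to 0.020, Pdia4 -0.16 to 0.039 and Xbp1 -0.14 to 0.0079.

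Over the whole table, in the order exercise in Flox, exercise in KO, KO in sedentary hearts, KO in exercise hearts, interaction, exercise average and KO average, edgeR called 0, 3, 19, 1, 0, 4 and 8 genes. DESeq2 called 44, 110, 371, 10, 47, 46 and 158, and no filter gave 2, 30, 120, 4, 1, 10 and 49. On 2 groups the first 3 were 2, 5 and 39. With the block, KO in sedentary hearts had 37, the exercise average 2 and the KO average 19. DESeq2 size factors gave 1 for exercise in KO and 2 for the exercise average. The atrial covariate gave 0, 1, 1 and 1 for exercise in KO, KO in sedentary hearts, the exercise average and the KO average, and the fibroblast covariate 0, 1, 7 and 2, with 2 for KO in exercise hearts. Leaving out a library gave 0 to 2, 0 to 566, 2 to 479, 1 to 2, 0 to 2, 0 to 12 and 4 to 34. The highest counts for exercise in KO, KO in sedentary hearts and both averages came without KO labelled sedentary 1, and the lowest for KO in sedentary hearts without Flox labelled sedentary 2.

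Of 18 pairs of libraries with the same replicate number, 6 had correlated deviations over 0.1 (range -0.32 to 0.31), against 10 of 36 with different numbers (-0.39 to 0.28). Deviations from a group mean sum to zero within each group, which ties these correlations together. They therefore cannot decide whether the numbers pair the samples. With the replicate block no member passed. Other scalings moved the median of all genes by at most 0.014. Depth limits Sdf2l1 most, which had 55 to 189 counts in a library.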
